A study of Mus musculus with 4 samples.

Results

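The MiT/TFE transcription factors Tfec, Mitf, Tfe3 and Tfeb and the folliculin genes Flcn, Fnip1 and Fnip2 were described in mouse Hoxb8 cells. These 7 genes were picked by name from the 52636 gene lines of the count table, with earlier results of the same contrast known. Their differences between groups are therefore given as a description, with no p-value. How many pass the edgeR threshold is given as a count from which nothing is read. The cells are a mouse line named for the homeobox gene Hoxb8, and lines immortalised with this gene are used as models of blood progenitors. The control group carried an empty vector (EV) and the other expressed DNMT3AR882H (R882H), with 2 libraries in each. R882H is a recurrent leukaemia variant of the de novo DNA methyltransferase DNMT3A. The labels used here give no sex, age, treatment, time, promoter or clone for either group. Nothing in the labels says that replicates were separate cultures, and p-values cover no more than the differences among these 4 libraries.

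MiT/TFE proteins are basic helix-loop-helix leucine zipper factors that bind as dimers, with themselves or with each other, to E-box sequences such as CACGTG and to the related M-box. TFEB and TFE3 switch on genes of the lysosome and of autophagy, MITF acts in melanocytes, mast cells and osteoclasts, and Tfec is known in the mouse as a factor of macrophages. When nutrients are plentiful, folliculin bound to FNIP1 or FNIP2 acts on the Rag GTPases at the lysosome, which present TFEB and TFE3 to the kinase complex mTORC1. The phosphorylated factors stay in the cytoplasm. This control acts on the protein, which transcript counts do not measure.

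The promoters of 3 members are shown. Tfec and Flcn were the members higher in R882H past the edgeR threshold, and Fnip1 was the member with an E-box in its window. Each window of 300 bases runs from 250 bases before to 50 after the RefSeq start site (build GRCm38.p6), is written 5′ to 3′ on the strand of the gene, and has motif matches in capitals. The Tfec window lies at chr6:16898392-16898691 on the minus strand, the Fnip1 window at chr11:54437929-54438228 on the plus strand and the Flcn window at chr11:59809990-59810289 on the minus strand.
Tfec promoter: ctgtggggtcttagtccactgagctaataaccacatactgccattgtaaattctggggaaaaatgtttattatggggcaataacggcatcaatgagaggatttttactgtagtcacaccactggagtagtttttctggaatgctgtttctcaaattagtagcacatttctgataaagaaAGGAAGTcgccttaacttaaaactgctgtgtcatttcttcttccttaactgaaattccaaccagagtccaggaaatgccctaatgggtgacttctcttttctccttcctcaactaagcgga
Fnip1 promoter: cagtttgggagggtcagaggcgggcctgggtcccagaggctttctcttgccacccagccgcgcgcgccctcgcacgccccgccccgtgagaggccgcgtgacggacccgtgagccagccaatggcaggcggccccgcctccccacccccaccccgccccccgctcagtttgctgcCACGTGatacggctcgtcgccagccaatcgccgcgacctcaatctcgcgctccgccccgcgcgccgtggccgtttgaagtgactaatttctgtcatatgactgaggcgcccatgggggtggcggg
Flcn promoter: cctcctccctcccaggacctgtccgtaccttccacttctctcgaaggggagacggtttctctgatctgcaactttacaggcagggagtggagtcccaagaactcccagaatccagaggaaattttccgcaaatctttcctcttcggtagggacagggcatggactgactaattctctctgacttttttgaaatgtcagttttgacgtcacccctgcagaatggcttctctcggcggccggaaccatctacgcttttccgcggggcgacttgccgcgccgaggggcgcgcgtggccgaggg

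The motifs searched on both strands were the E-box CACGTG, the M-box core TCATGTG and AGGAAGT, a core bound by ETS factors such as PU.1. These motifs do not contain each other. RefSeq windows were found for all 7 members, 12 windows in all. The Tfec window held AGGAAGT at bases 180 to 186 and neither other motif, and the first of 2 Tfe3 windows also held AGGAAGT, which 9.35% of all 32851 promoter windows of this length contain. Fnip1 held CACGTG at bases 176 to 181, against 7.15% of all windows. TCATGTG, present in 3.77% of all windows, was in no member window, and the Flcn window had none of the 3 motifs. A match is a run of letters and not a bound site.

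The number of CpG dinucleotides, the pair that DNA methyltransferases act on, differed widely among these windows. The Tfec window had 3 CpGs and a GC content of 40.3%, whereas the Flcn window had 20 CpGs, the Fnip1 window 34 and the Fnip2 window 44. Over all windows the median was 7 CpGs, and 31.4% of them had no more than that of Tfec. Mitf had 3 windows with 22, 5 and 8 CpGs, Tfeb 3 windows with 22, 20 and 6, and Tfe3 2 windows with 14 and 8. Methylation of these windows was not measured in these libraries.

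**Figure D1:**
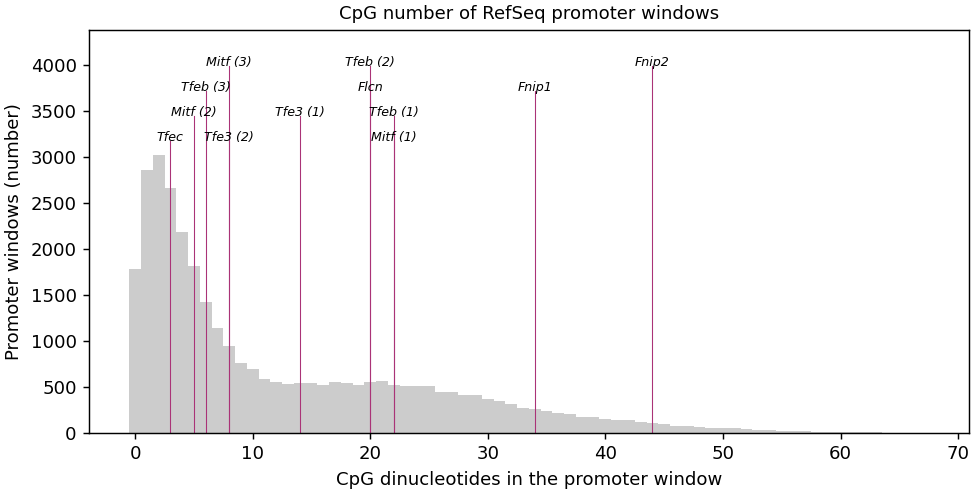
Number of RefSeq promoter windows (grey bars) by the CpG dinucleotides they hold, with the windows of the 7 members as vertical lines; numbers in brackets are windows of genes with several start sites, in order of position. The Tfec window, with 3 CpGs, stands among the windows with few, and the Fnip1 and Fnip2 windows, with 34 and 44, among those with many.

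The libraries held between 5470330 and 5921985 counts each, and 11444 genes had enough counts to be tested. Of these, 38.8% passed the edgeR test (adjusted p below 0.05), 19.3% higher and 19.4% lower in R882H. Dnmt3a itself had 264 and 270 counts in EV and 254 and 239 in R882H, and 3′ tags need not cover a transgene, so these values do not check the labels. Counts of Hoxb8 were 25 and 44 in EV and 15 and 4 in R882H, and the progenitor markers Cd34, Flt3 and Kit were present in all 4 libraries. The X-linked Xist had 1438 to 1880 counts in every library, whereas transcripts of the Y chromosome stood apart in R882H: Ddx3y had 0 and 2 counts in EV and 65 and 41 in R882H, Eif2s3y 1, 0, 26 and 29 in the same order, and Uty 0, 0, 12 and 10. Marker lists of other blood cells moved too. The summed level of 9 monocyte or macrophage markers was 101 to 110.5 CPM (counts scaled to the size of the library) in EV and 163 to 178 CPM in R882H, with 3 markers higher and 2 lower of 6 tested. Summed levels in EV and R882H were 1141 to 1295 and 2793 to 2847 CPM for 9 neutrophil markers, 546 to 564 and 1545 to 1565 CPM for 7 B lineage markers (2 of 4 tested neutrophil markers and 6 of 6 tested B lineage markers were higher). Of the neutrophil markers, Mpo had 30.4 and 34.9 CPM in EV and 1213 and 1270 CPM in R882H. Ctsg had 846 and 677 CPM in EV and 1171 and 1159 CPM in R882H. Prtn3 did not pass (means of 419 and 406 CPM), and 4 neutrophil markers had no counts. The sum of 6 megakaryocyte markers, 873 to 1059.6 CPM in EV and 22.5 to 26.9 CPM in R882H, was mostly Pf4 in EV (1033 and 844 CPM), and 1 of 4 tested markers was higher and 2 lower. The sum of 6 dendritic markers, 396 to 418 and 594 to 681 CPM, was nearly all Flt3, the only one tested. Erythroid markers summed to 8.83 to 11.7 and 7.37 to 8.03 CPM, with none called of 1 tested, and all 5 fibroblast markers were at 0. The labels do not say whether both groups came from the same cells, and a difference in source cannot be told apart from one in DNMT3AR882H. The part of the Y-linked and lineage transcripts in the results below was not tested, and fewer cells with a transcript cannot be told apart from less of it per cell.

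Tfec, the macrophage member of the family (ENSMUSG00000029553, mm10 chromosome 6, 16833373 to 16898441, minus strand), was close to absent in EV and clearly present in R882H. EV replicates 1 and 2 had 0 and 1 counts of it, and R882H replicates 1 and 2 had 131 and 136. Both R882H libraries therefore stood far above both EV libraries, and they differed little from each other. On the CPM scale the level was 0.0883 ± 0.125 in EV and 22.9 ± 1.38 in R882H (mean ± SD, n = 2 per group, here and below). The ratio of normalised counts was 254, with an exact 95% interval of 45.2 to 10079.9 that covers counting error only. The count of 0 in EV replicate 1 was set against a fixed bound of 3 counts, or 0.549 CPM. Its exact 95% counting interval reaches 0.675 CPM. The sum of the monocyte or macrophage markers given above was also higher in R882H, although of 6 tested markers 3 were higher and 2 lower. Mean levels in EV and R882H were 41.9 and 95.9 CPM for Ccr2 and 16.7 and 33.8 CPM for Cd68, both higher. Most of the difference in the sum was that of Ccr2. Csf1r, at 22.9 and 27.8 CPM, did not pass. The part of these markers in the Tfec level was not tested. In the whole table, 4 genes had at most 1 count over both EV libraries and at least 100 in each R882H library, Tfec among them.

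Tfe3, with Tfeb the main activator of lysosomal genes (ENSMUSG00000000134, chromosome X, 7762560 to 7775202, plus strand), was the most counted factor in EV and lower in R882H. It had 147 and 143 counts in EV and 79 and 97 in R882H, or 26.1 ± 1.21 CPM and 15.1 ± 2.69 CPM. The groups did not overlap, and the difference was −0.79 ± 0.19 on the log2 scale (edgeR estimate ± standard error). In a gene on the X chromosome this difference stands beside the Y-linked transcripts given above, whose part in it was not tested.

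Tfeb (ENSMUSG00000023990, chromosome 17, 47737030 to 47792419, plus strand) and Mitf (ENSMUSG00000035158, chromosome 6, 97807052 to 98021349, plus strand) were scarce. Tfeb, the factor best known for lysosome formation, had 14 and 14 counts in EV and 21 and 19 in R882H, or 2.52 ± 0.0681 CPM and 3.42 ± 0.126 CPM. Its groups did not overlap, but at these counts the ratio of 1.36 has a counting interval of 0.819 to 2.29. Mitf, the factor of melanocytes, mast cells and osteoclasts, had 11 and 20 counts in EV and 14 and 7 in R882H, or 2.77 ± 1.07 CPM and 1.79 ± 0.788 CPM. Its groups overlapped, and the ratio of 0.645 has a counting interval of 0.352 to 1.16. For both genes the depth leaves no change and changes of over 1.5-fold within the interval. Tags at the 3′ end do not tell which of the Mitf, Tfeb or Tfe3 start sites was used.

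**Figure D2:**
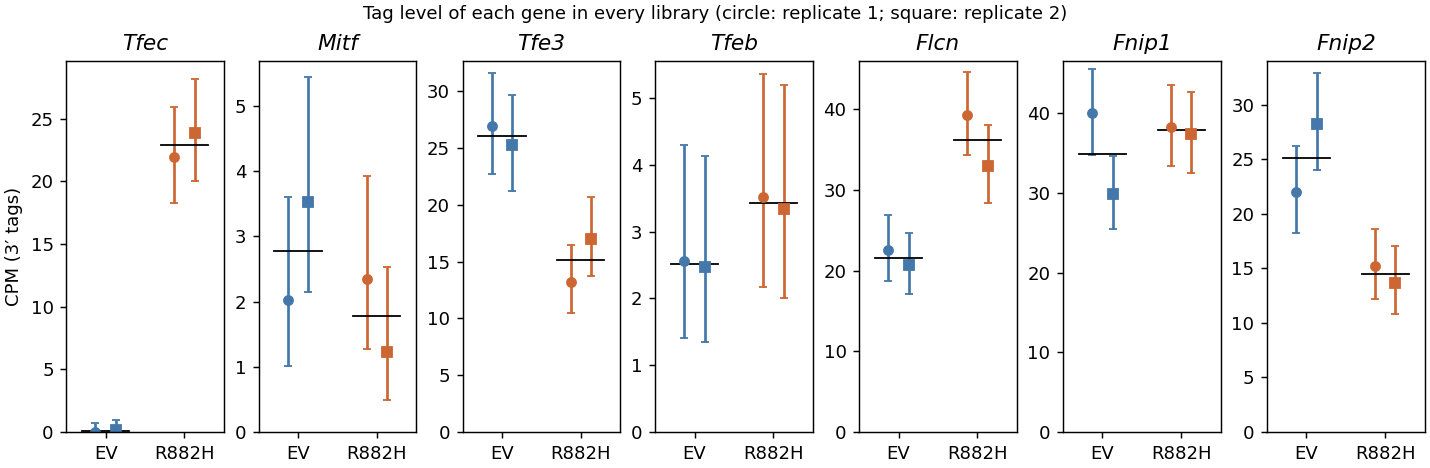
Tag level in CPM of each of the 7 genes in every library, on a vertical axis of its own that starts at 0. Points are libraries (circle, replicate 1; square, replicate 2), whiskers are exact 95% counting intervals and black lines are group means; Tfec is near 0 in EV and at 21.9 and 23.9 CPM in R882H, and the Mitf and Fnip1 groups overlap.

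The make-up of the family followed from these levels. Of the summed counts of the 4 factors, Tfe3 gave 85.5% and 80.3% in EV, against 32.2% and 37.5% in R882H. Tfec gave 0% and 0.562% in EV and 53.5% and 52.5% in R882H, with exact 95% intervals of 47.0 to 59.8% and 46.2 to 58.7% there. Tfec was thus the most counted factor in both R882H libraries and the least counted in both EV libraries. The share of Tfeb was 8.0 ± 0.194% in EV and 7.95 ± 0.874% in R882H, and that of Mitf 8.82 ± 3.42% and 4.21 ± 2.13%. The summed level of all 4 factors was 31.5 and 31.3 CPM in EV and 40.9 and 45.4 CPM in R882H. Without Tfec the other factors summed to 31.5 and 31.2 CPM in EV and 19.0 and 21.5 CPM in R882H, so that the sum was lower in R882H without Tfec and higher with it.

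**Figure D3:**
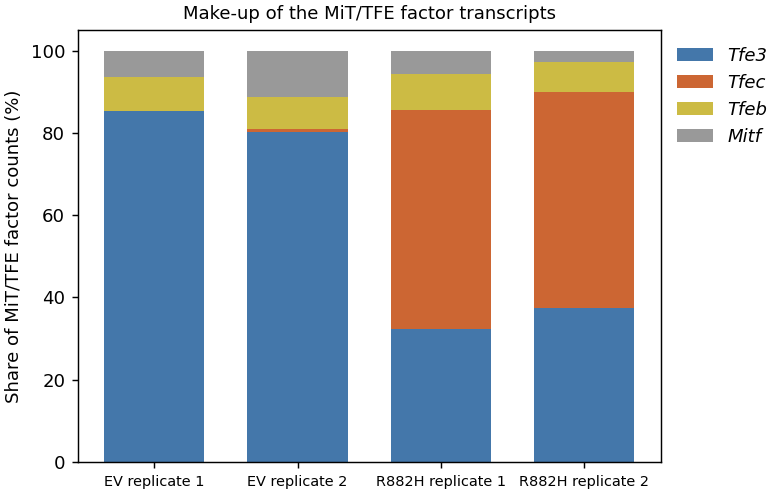
Share of the summed Tfec, Mitf, Tfe3 and Tfeb counts that each factor gave, in percent, with a stacked bar for each library. Tfe3 makes up 85.5% and 80.3% of the EV bars, and Tfec 53.5% and 52.5% of the R882H bars.

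The folliculin genes differed from each other. Flcn, which encodes folliculin itself (ENSMUSG00000032633, chromosome 11, 59791408 to 59810016, minus strand), had 123 and 117 counts in EV and 235 and 188 in R882H. That is 21.6 ± 1.35 CPM and 36.2 ± 4.47 CPM, a log2 difference of 0.74 ± 0.17, and both R882H libraries lay above both EV libraries. Fnip2, 1 of the 2 partners of folliculin (ENSMUSG00000061175, chromosome 3, 79455974 to 79567796, minus strand), went the other way, with 120 and 160 counts in EV and 91 and 78 in R882H. Its mean was 25.1 ± 4.41 CPM in EV against 14.5 ± 1.08 CPM, a log2 difference of −0.80 ± 0.19, and the groups did not overlap although the EV libraries were apart.

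Fnip1, the other partner (ENSMUSG00000035992, chromosome 11, 54438199 to 54518235, plus strand), had 218 and 169 counts in EV and 229 and 213 in R882H, or 34.9 ± 7.18 CPM and 37.9 ± 0.655 CPM. Both R882H values lay between the EV values, and the log2 difference of 0.12 ± 0.17 turned to −0.08 without EV replicate 2 and was 0.34 without EV replicate 1. Among the counts of both partners, Fnip1 gave 64.5% and 51.4% in EV and 71.6% and 73.2% in R882H. The interval of the lower R882H share, 66.3 to 76.4%, overlaps that of the higher EV share, 59.1 to 69.6%. The 3 folliculin genes together had 84.4 and 78.5 CPM in EV and 92.6 and 83.9 CPM in R882H, and these ranges overlap.

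**Figure D4:**
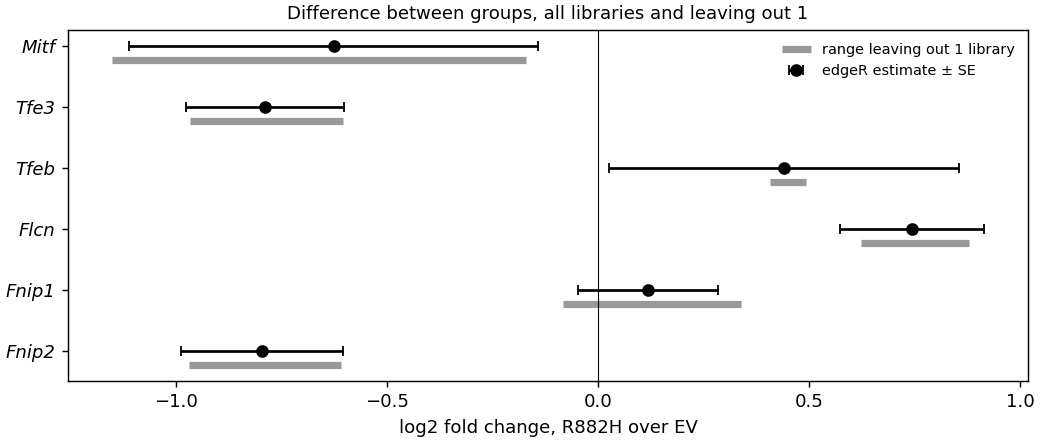
Log2 fold change, R882H over EV, of 6 of the genes from edgeR with its standard error (points and whiskers) and the range of the estimate when each library is left out in turn (grey bars). Tfec is not drawn because the EV libraries held 1 count of it; the grey bar of Fnip1 crosses 0, from −0.08 to 0.34.

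Over all members, 5 of 7 had groups that did not overlap, against 69.1% of all tested genes. Past the edgeR threshold were 4 of 7 (Tfec and Flcn higher, Tfe3 and Fnip2 lower), beside 38.8% of all tested genes, and without R882H replicate 1 they were 3 of 7, without Tfe3. As the members were chosen with this contrast known, nothing is read from these counts. No member shared exon positions with another gene of at least 10 counts.

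Levels of 3′ tags do not grow with transcript length and were set side by side in CPM. Whether tags of each gene were counted equally well was not tested, so the order is one of counted tags. In EV the order was Fnip1, Tfe3, Fnip2, Flcn, Mitf, Tfeb and Tfec. The Fnip2 libraries overlapped those of both Tfe3 and Flcn, the Mitf libraries enclosed those of Tfeb, and Tfec lay below every other member. In R882H the order was Fnip1, Flcn, Tfec, Tfe3, Fnip2, Tfeb and Mitf. There the Flcn libraries enclosed those of Fnip1 and the Tfe3 libraries those of Fnip2, while Tfec stood between these pairs without overlap.

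The genes around this family were counted in 9 lists of 156 genes, of which 122 were tested. In R882H 12 rose and 27 fell (32.0% of those tested, beside 38.8% of all tested genes), and 83 did not pass. Their median log2 fold change was −0.10, against 0.01 over all tested genes. Adjusted p-values below are from the edgeR quasi-likelihood test over all genes.

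In nutrient sensing at the lysosome, Rraga, the Rag GTPase A that recruits mTORC1, fell from 938 and 1004 counts in EV to 463 and 522 in R882H (log2 fold change −1.05 ± 0.13, adjusted p = 1.04e-07). Both R882H libraries were far below both EV libraries. Sesn1, a sestrin that restrains mTORC1, rose from 152 and 125 to 332 and 282 counts (1.07 ± 0.16, adjusted p = 2.46e-06), and the related Sesn2 fell from 38 and 41 to 20 and 23 (−0.94 ± 0.33, adjusted p = 0.0207). The GATOR2 subunit Mios also rose (0.63 ± 0.20, adjusted p = 0.011), and the kinase gene Mtor fell (−0.42 ± 0.15, adjusted p = 0.027). Counting all 26 that were tested, 2 rose and 3 fell, 21 missed the threshold, and the median was −0.07. DESeq2 called 2 of the list, as did edgeR without R882H replicate 2, and DESeq2 lost the calls of Sesn2 (adjusted p = 0.13) and Mios (adjusted p = 0.096). It also lost that of Mtor (adjusted p = 0.109). The Sesn2 call ended without any 1 of the 4 libraries, that of Mios without EV or R882H replicate 2, and that of Mtor when any library other than EV replicate 1 was left out. Adjusted p-values under such alternatives stand in brackets from here on.

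Among enzymes and carriers that act on the factors, 1 of 23 tested genes rose, 7 fell and 15 missed the threshold (list median −0.15). AKT1 phosphorylates TFEB, and Akt1 fell from 3329 and 3515 counts in EV to 2201 and 2338 in R882H (−0.66 ± 0.13, adjusted p = 0.000178). The 14-3-3 gene Ywhag, of the proteins that hold phosphorylated factors in the cytoplasm, fell from 1885 and 2198 to 1347 and 1268 counts (−0.71 ± 0.13, adjusted p = 5.11e-05). For both genes the groups were well apart. The other 14-3-3 genes of the list did not pass. Their log2 fold changes were 0.30 for Ywhae, the most counted of them, 0.08 for Ywhaz, 0.04 for Ywhaq, −0.03 for Ywhab and −0.28 for Ywhah. The AMPK subunit gene Prkag2 fell with unequal EV libraries, 290 and 449 counts against 194 and 221 (−0.90 ± 0.16, adjusted p = 5e-05). Map4k3, a kinase of amino acid sensing that phosphorylates TFEB, had 15 and 13 counts in EV and 0 and 0 in R882H, at least 9.80-fold lower against 3 counts over the group (adjusted p = 2.35e-05). Akt2 fell as well (0.0751 without R882H replicate 1), as did Gsk3b (0.0604 without R882H replicate 2) and the AMPK subunit gene Prkaa1, and the AMPK subunit gene Prkab2 rose (0.76 ± 0.28, adjusted p = 0.0271), a call that ended in DESeq2 (0.161) and without any 1 of the 4 libraries (0.0516 to 0.180).

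In the CLEAR network, the lysosomal genes whose promoters carry the element that TFEB and TFE3 bind, 1 of 23 tested hydrolase and membrane protein genes rose, 6 fell and 16 did not pass (median −0.12). The lysosomal membrane protein gene Cd63 fell from 2014 and 1784 counts in EV to 616 and 594 in R882H (−1.72 ± 0.14, adjusted p = 2.02e-12). The sialidase gene Neu1 fell from 393 and 385 to 212 and 166 counts (−1.11 ± 0.15, adjusted p = 2.07e-07) and the glucuronidase gene Gusb from 1036 and 1115 to 633 and 587 (−0.89 ± 0.13, adjusted p = 1.35e-06). In all 3 the groups were far apart. Sgsh, a sulphatase gene, fell on few counts (41 and 55 against 19 and 14; −1.60 ± 0.33, adjusted p = 0.000231). Gla (adjusted p = 0.0208) and Gaa (adjusted p = 0.041) also fell, but DESeq2 called neither (0.12 and 0.145), nor did edgeR without R882H replicate 1 (0.0569 and 0.139) or 2 (0.201 and 0.253). Without EV replicate 1 (0.11, Gla) and EV replicate 2 (0.107, Gaa) 1 of them was lost each time. The galactosidase gene Glb1 rose from 176 and 180 to 279 and 275 counts (0.57 ± 0.15, adjusted p = 0.0036). Exons of Glb1 overlap Tmppe, and their reads cannot be told apart. Of the 20 genes of this list with a promoter window, 11 held CACGTG (55.0%), against 8.09% of all genes with a window. The network was defined by this element, so the share is built in. Among genes with a window in the other lists, CACGTG was in 4 of 9 for the proton pump and 6 of 25 for nutrient sensing. It was in 1 of 20 for enzymes and carriers, 2 of 6 for melanocyte targets and 4 of 12 for E-box relatives. None of 11 autophagy genes, 13 mast cell targets or 6 osteoclast targets held it.

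Of 13 tested subunits of the proton pump that acidifies the lysosome, none rose, 3 fell and 10 did not pass (median −0.09). The membrane subunit gene Atp6v0c fell from 1450 and 1641 to 926 and 880 counts (−0.84 ± 0.13, adjusted p = 3.38e-06) and Atp6v0d1 from 263 and 304 to 162 and 182 (−0.79 ± 0.16, adjusted p = 0.00014). Atp6v1a fell too (−0.42 ± 0.13, adjusted p = 0.0106), and without R882H replicate 1 (0.120) or 2 (0.146) its call ended. Without EV replicate 1 the list had 5 calls. Among 12 tested autophagy genes, none rose, 3 fell and 9 did not pass (median −0.12). The cargo receptor gene Sqstm1 fell from 671 and 850 to 504 and 450 counts (−0.74 ± 0.14, adjusted p = 4.04e-05), Gabarap, whose protein sits on the autophagosome, from 601 and 791 to 414 and 466 (−0.73 ± 0.14, adjusted p = 8.47e-05), and Atg9b had −0.80 ± 0.22 (adjusted p = 0.00457; 0.0936 without EV replicate 2). In each of the 3 the EV libraries differed from each other but stayed above both R882H libraries. Exons of Sqstm1 and Atg9b overlap Mrnip and Nos3. With such genes left out, the autophagy list had 1 call. The called share, in either direction, was 30.4% of the hydrolase and membrane protein list and 23.1% of the pump list. For autophagy it was 3 of 12, and each of these shares was below the 38.8% of all tested genes.

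**Figure D5:**
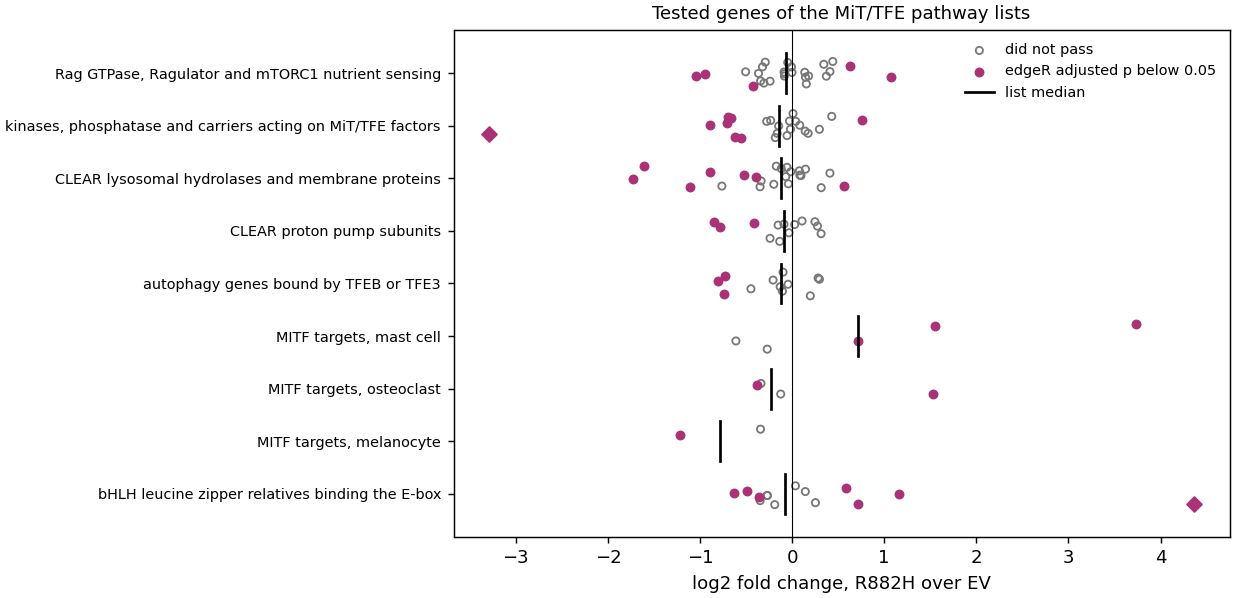
Log2 fold change, R882H over EV, of the tested genes in each of the 9 lists around the MiT/TFE factors. Filled points passed the edgeR test, open circles did not, and vertical bars are list medians. The 2 diamonds are Map4k3 (no counts in R882H) and Mycn (no counts in EV), drawn at the bound that 3 counts allow. Most filled points of the CLEAR and autophagy lists lie left of 0, but most tested genes of these lists did not pass.

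Many targets of MITF had no counts. In the mast cell list 10 of 16 genes had no counts in any library, among them the tryptase genes Tpsb2 and Tpsab1, the chymase gene Cma1 and the IgE receptor gene Fcer1a, while Cpa3, Hdc and Kit were counted. The summed level of the list was 132 and 151 CPM in EV and 462 and 458 CPM in R882H. Of 5 tested genes 3 rose and 2 missed the threshold. Those 2, Hpgds (−0.61 ± 0.29) and Bcl2 (−0.27 ± 0.14), had lower estimates in R882H. Most of the difference in the list sum was that of Cpa3, and Kit was also given above as a progenitor marker. Cpa3, the carboxypeptidase of mast cell granules, rose from 116 and 134 to 1720 and 1779 counts (3.74 ± 0.15, adjusted p = 2.8e-20), and Kit, the stem cell factor receptor gene, from 111 and 185 to 520 and 388 (1.55 ± 0.17, adjusted p = 2.21e-08). Both R882H libraries were above both EV libraries in each. Hdc, which makes histamine, rose from 48 and 38 to 62 and 86 counts (0.71 ± 0.26, adjusted p = 0.0257), and its call ended in DESeq2 (0.155), without EV replicate 2 (0.207) and without R882H replicate 2 (0.355).

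In the osteoclast list, 4 of 10 genes had no counts in any library, and the cathepsin K gene Ctsk had 1 count in all. Of 4 tested members, Acp5, the tartrate-resistant phosphatase gene, rose on few counts (6 and 14 against 23 and 38; 1.53 ± 0.44, adjusted p = 0.0056) and the integrin gene Itgb3 fell (−0.39 ± 0.16, adjusted p = 0.0471). DESeq2 called neither (0.0567 and 0.164), nor did edgeR without R882H replicate 2 (0.168 and 0.233). The melanocyte list had 8 of 11 genes at 0, including the pigment enzyme genes Tyr, Tyrp1 and Dct. Pmel, a melanosome protein gene whose exons overlap Cdk2 and Dgka, fell from 211 and 204 to 76 and 111 counts (−1.22 ± 0.19, adjusted p = 2.61e-06) and was 1 of 2 tested.

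Of 14 other basic helix-loop-helix leucine zipper genes whose proteins bind E-boxes, 4 rose, 3 fell and 7 did not pass (median −0.08). Mxd4, a repressor that pairs with MAX, rose from 389 and 396 to 992 and 854 counts (1.16 ± 0.13, adjusted p = 1.02e-08); its exons overlap Gm42846. Mycn had no counts in EV and 39 and 26 in R882H, at least 20.6-fold higher against 3 counts over the group (adjusted p = 7.01e-08). Myc rose as well (0.58 ± 0.15, adjusted p = 0.00195), with calls lost without EV replicate 1 (0.0562) or R882H replicate 1 (0.0569). The sterol factor gene Srebf2 fell from 613 and 921 to 492 and 541 counts (−0.63 ± 0.15, adjusted p = 0.000895; 0.0519 without EV replicate 2), and Srebf1, whose exons overlap Rai1, fell as well (−0.36 ± 0.14, adjusted p = 0.0442), a call lost in DESeq2 (0.154), with robust=FALSE (0.0512) and without EV replicate 2 (0.191) or R882H replicate 2 (0.592). Usf2, the most counted of these genes, had 2959 and 2944 counts in EV and 1760 and 2639 in R882H (−0.49 ± 0.16, adjusted p = 0.0142), and its call ended without R882H replicate 1 (0.566), without either EV library (0.281 and 0.309) and in DESeq2 (0.272).

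The protein-coding genes whose pattern over the 4 libraries lay closest to that of Tfec, by Euclidean distance between centred log2 CPM values, included Bhlhb9 (0.43), Mpo (0.589), Zfp827 (0.602) and Tdrkh (0.723). Bhlhb9 had 0 and 0 counts in EV and 106 and 101 in R882H, and Zfp827 had 0, 0, 76 and 84 in the same order. Both share with Tfec a near absence in EV, and they were also among the 5 closest with a prior count of 0.5, while Mpo and Tdrkh were not. Mpo, the myeloperoxidase gene, had 166 and 198 counts in EV and 7250 and 7237 in R882H. Fnip2 was taken as the member with the lowest fitted log2 difference, although Tfe3 was within the standard error of it and lower without EV or R882H replicate 2. For Fnip2 the closest were Itgb5 (0.0135), Atg9b (0.0464), Lgals2 (0.055), Pelp1 (0.0587) and Ubap2 (0.0598), of which 4 were kept with the other prior count. Itgb5, an integrin gene, had 140 and 189 counts in EV and 107 and 92 in R882H. With 4 libraries such a distance takes in little more than the group difference and the gaps within groups. Exons of Bhlhb9, Tdrkh and Lgals2 overlap Gprasp1, Oaz3 and Cdc42ep1.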

How the data were processed

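RNA of 4 mouse Hoxb8 libraries (QuantSeq 3′ tags, single-end reads) was used as the raw counts per Ensembl gene that the authors deposited. The submitters' processing notes name the build mm10 and the tools HISAT2 2.0.4, Subread 2.0.0 with featureCounts, cutadapt 1.14, bcl2fastq 2.17.1.14, limma 3.48.3 and edgeR 3.34.0, with no roles. Which annotation, strand setting and handling of multi-mapping reads were used is not given in the sources used here. Symbols and positions came from GENCODE M21, on the same assembly as mm10, and 233 lines without a symbol stayed in under their IDs. Promoters came from RefSeq.

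Counts were fitted with edgeR 4.0.16 in R 4.3.3 (filterByExpr, TMM, glmQLFit with robust estimation, glmQLFTest, Benjamini-Hochberg over all tested genes). DESeq2 1.42.0 was an alternative. Standard errors were taken as |log2 fold change| divided by √F and are too small where a group has few counts. CPM values use TMM-scaled totals. Members and lists were chosen with earlier results of these data known. Named genes were the members, up to 4 called genes per list by p and up to 2 in the opposite direction, the 3 most counted markers of other cells, and nearest patterns; Gla, Gaa, Akt2, Gsk3b, Prkaa1, Mtor, Srebf1, list members at 0, progenitor markers and Hoxb8 were added after their values were seen. Intervals cover counting error only. Library pairs of a group were not the same library (chi-square per degree of freedom 5.27 in EV and 3.62 in R882H). Some genes that these rules name are not reported here.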

Additional observations from a re-analysis of the deposited data

How the results depend on the processing

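Results were recomputed under 9 other settings and with each of the 4 libraries left out. Of these settings, the prior count of 0.5 was applied to the nearest patterns only. Of all tested genes, 2213 were higher and 2222 lower; DESeq2 gave 1401 and 1517, and leaving out a library gave 1508 to 2065 higher and 1446 to 2168 lower, the lowest without R882H replicate 1. Members past the threshold were 4 under every alternative fit to all 4 libraries. As they were chosen with this contrast known, nothing is read from that count. Leaving out a library gave log2 fold changes of 6.85 to 10.03 for Tfec, −1.15 to −0.17 for Mitf, −0.97 to −0.60 for Tfe3, 0.41 to 0.49 for Tfeb, 0.62 to 0.88 for Flcn, −0.084 to 0.34 for Fnip1 and −0.97 to −0.61 for Fnip2. The fitted value for Tfec depends on the prior count. Per library, Tfe3 shares were 80.3 to 85.5% in EV and 32.2 to 37.5% in R882H, those of Tfec 0 to 0.562% and 52.5 to 53.5%.

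Called genes of a list, with the range when a library was left out, were 5 for nutrient sensing (2 to 5; 2 in DESeq2), 3 for the proton pump (2 to 5), 7 for E-box relatives (4 to 6) and 2 for osteoclast targets (0 to 2; 1 without a low-count filter, 1 with robust=FALSE, 0 in DESeq2). Without genes whose exons overlap another counted gene, autophagy genes had 1 call in place of 3 and melanocyte targets 0 in place of 1, as their other called genes were left out. Over all lists, 12 rose (8 to 13) and 27 fell (20 to 28). Of the 39 called list genes, 0 changed sign and 18 lost the call in at least 1 setting, 11 of them in DESeq2 and all 18 when some library was left out; the cause of these losses was not tested. Same-numbered libraries did not deviate together (r = −0.00261 across genes). This value cannot tell whether they were grown or prepared together, which the labels do not say. With the replicate block 2196 genes were higher and 2229 lower, and 0 of the 39 list genes lost the call. Cav2 (adjusted p = 0.0534, edgeR) and Gm15581 (adjusted p = 0.0787, edgeR), neighbours of Tfec, did lose it. With 7 to 21 counts per library, Mitf and Tfeb could not be resolved beyond the intervals given.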

Other observations

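Genes beside the members on the chromosome were counted within 500 kb of each member, in a window chosen after the values were seen. Over all 7 members 78 neighbours were tested, of which 15 rose and 19 fell (43.6%, beside 38.8% of all tested genes). Some neighbours had nearly the same counts as each other and were still counted as separate genes. Near Tfe3, Foxp3 (76, 103, 156 and 159 counts, EV before R882H) and Ccdc22 (76, 103, 156 and 158) were both called. Near Tfeb, Tomm6 and Gm21981 were such a pair and neither was called. Tfec had 3 tested neighbours. Tes, 167 kb away, had 202 and 214 counts in EV and 233 and 241 in R882H (0.12 ± 0.15 on the log2 scale, adjusted p = 0.576 from edgeR). The caveolin gene Cav2, 383 kb away, rose from 21 and 15 to 37 and 33 counts (0.88 ± 0.35, adjusted p = 0.0458), and Gm15581 from 8 and 6 to 17 and 18 (1.24 ± 0.49, adjusted p = 0.0459). Both calls ended in DESeq2 (adjusted p = 0.215 and 0.23), with the replicate block (0.0534 and 0.0787) and when any 1 of at least 3 of the libraries was left out. Mitf had no tested neighbour. Around Fnip2, Tmem144 had no counts in EV and 16 and 29 in R882H, Etfdh rose from 93 and 75 to 125 and 149 counts (0.64 ± 0.20, adjusted p = 0.00958), and Rapgef2 fell from 77 and 66 to 58 and 25 (−0.86 ± 0.28, adjusted p = 0.0135). DESeq2 called neither Etfdh (adjusted p = 0.0873) nor Rapgef2 (adjusted p = 0.095), and without R882H replicate 2 edgeR did not either (0.14 and 0.353). By member, 60.0% of 5 tested neighbours were called around Fnip2, 55.6% of 9 around Fnip1, 53.6% of 28 around Tfe3, 33.3% of 15 around Tfeb and 22.2% of 18 around Flcn.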
